A study of Oryza sativa with 6 samples.

Results

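The nitrogen response of roots of the rice variety Varadan was described on 3 of the 6 arrays of the study. These were the arrays labelled Varadan: 1 from seedlings moved to a medium without nitrogen, and 2 from seedlings kept with supplemented nitrogen, here replicate 1 and replicate 2. The number 1 is only a name, since the labels number the second replicate alone. Per the labels, seedlings of all groups were 14 days old and grown in hydroponics. Germination took 7 days, and Yoshida medium with nitrogen, a nutrient solution for rice, was given for 10 days until the supplies were split. These periods exceed the stated age, and no label says how long the roots were without nitrogen. The other 3 arrays held roots of the variety Prasanna under the same supplies and serve only for the spread and for the test of a difference between varieties. The labels do not tie the replicates to separate cultures, and p-values therefore measure only how far these arrays lie apart, which may be technical.

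The deposited tables disagree on which Varadan array is which. The array called without nitrogen in the log2 table carries the values that the series matrix gives to replicate 1, and the reverse, while the other 4 arrays agree by name. Array names below follow the log2 table. Each array's difference from replicate 2, whose place is the same in both tables, was therefore given apart. A change was counted as holding under either labelling when the array without nitrogen and replicate 1 both differed from replicate 2 by at least 2-fold (1 on the log2 scale) in the same direction. By this rule the arrays with nitrogen differ from each other by at least 2-fold under either labelling. Genes on which they agree cannot be counted, and a replicate 2 that stands apart for another reason cannot be told from a nitrogen response. The difference between the array without nitrogen and replicate 1 only turns its sign when the labels are exchanged.

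Plant roots take up nitrate and ammonium through transporters in the plasma membrane, and rice roots, which grow in flooded soil, are known for a large capacity for ammonium. Nitrate is reduced to nitrite and then to ammonium, which glutamine synthetase and glutamate synthase build into amino acids. In many plants nitrate itself switches on the genes of its reduction, while high-affinity transporters are raised when nitrogen runs short.

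All 5 root markers read above the 40th percentile of their array, the level below which a reading was not taken as above background, on every Varadan array. The silicon transporter OsLsi1 read 15.21 log2 on the array without nitrogen and 14.98 on both replicates, and the root cortex protein gene RCc3 read 14.26, 14.61 and 13.63. Other features also separated these arrays. The mean of the photosynthesis list, markers of green tissue, was 13.07 without nitrogen, 12.13 on replicate 1 and 11.05 on replicate 2, and that of the cell cycle list, markers of dividing cells, was 9.33, 10.32 and 10.16. Bacillus spike-in RNA, added during labelling, read 11.07, 9.46 and 7.79 in the same order. GAPDH's 3' signal exceeded its 5' signal, a measure of RNA degradation, by 4.77, 4.38 and 4.41. For the actin control this excess was 5.76, 5.82 and 5.15, and for the Cyph control 1.83, 1.34 and 1.62. Their part in the results below was not tested. In bulk roots, fewer cells of a type and less RNA per cell cannot be told apart.

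The arrays differed widely from each other. Of 34316 tested probe sets, 4893 (14.3%) were at least 2-fold higher without nitrogen than on replicate 1 and 3612 (10.5%) were lower. Against replicate 2, 6189 (18%) were higher and 5497 (16%) lower. The replicates with nitrogen differed from each other at 3914 probe sets higher (11.4%) and 3827 lower (11.2%) on replicate 1, in all 22.6% of probe sets, beside 24.8% and 34.1% between the array without nitrogen and replicates 1 and 2. Quantile normalization turned the split against both replicates. Against replicate 1, 57.5% of the calls were higher in the deposited values and 46.4% after it. Against replicate 2 the shares were 53% and 47.2%. Under either labelling 2839 probe sets (8.27%) were higher than on replicate 2 and 1621 (4.72%) lower. For 538 (1.57%) and 136 (0.396%) of them the contrast of the array without nitrogen against the mean of the arrays with nitrogen also passed 2-fold under both labellings. Of the 11686 probe sets past 2-fold between the array without nitrogen and replicate 2, replicate 1 lay nearer to the array without nitrogen in 46.2%.

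In limma's test of the array without nitrogen against both replicates, 0 of 34316 probe sets passed (0%; smallest Benjamini-Hochberg adjusted p = 0.333). An unadjusted p under 0.05 was reached by 4381 (12.8%), of which 1535 were higher and 2846 lower. With the labels exchanged it also called 0, with 1179 at that level. The variance without a trend, the robust variance and the fit of the 3 Varadan arrays alone called 0 as well. When replicate 1 was left out, 241 probe sets passed (0.702%), with 130 of them higher on the array without nitrogen and 111 lower. With replicate 2 left out none did, with 4458 at an unadjusted p under 0.05. Replicate 1 against replicate 2 alone called 55 (0.16%), and 44 probe sets (0.128%) passed against replicate 2 from both exchanged arrays, 15 higher and 29 lower. In these last fits the spread comes from the Prasanna pair, and each lone Varadan array is assumed to vary like it.

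Several genes of nitrogen uptake differed from replicate 2 on both exchanged arrays and so met the rule for either labelling. Of 13 tested nitrate transport genes, 6 were at least 2-fold higher on both exchanged arrays than on replicate 2 and 1 was lower, beside 8.27% and 4.72% of all tested probe sets. The root's high-affinity nitrate transporter gene OsNRT2.3 (Os01g0704100) read 12.49 log2 without nitrogen, 12.29 on replicate 1 and 7.78 on replicate 2. The exchanged arrays lay within 0.21 of each other and 26.2-fold and 22.7-fold above replicate 2. OsNRT2.3 passed in limma against replicate 2 from either array, with a difference of 4.71 ± 0.32 (SE, adjusted p = 0.0476) from the array without nitrogen and 4.51 ± 0.33 (adjusted p = 0.0435) from replicate 1. With replicate 1 counted as a replicate with nitrogen, its contrast was 2.46 ± 1.72 (adjusted p = 0.559).

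Of the other high-affinity genes tested, 3 had the same order with smaller differences. OsNRT2.1 read 7.15, 6.87 and 5.30, OsNRT2.2 read 8.47, 8.21 and 7.07, and OsNAR2.1, the partner protein that these transporters need at the membrane, read 12.51, 12.20 and 10.75. In each case both exchanged arrays were at least 2-fold above replicate 2, and they differed from each other by 0.26 to 0.31. OsNRT2.1 and OsNRT2.2 are near-identical copies, so their signals may not be separate. OsNAR2.2 was highest on replicate 2, at 6.3, 6.21 and 6.73, less than 2-fold apart.

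Low-affinity carriers of the NPF family fell into several patterns. OsNPF2.4 (12.78, 12.54 and 11.48) and OsNPF2.2 (6.86, 6.80 and 5.51) followed the high-affinity genes. OsNPF6.5, also known as NRT1.1B, a nitrate transporter and sensor, went the other way, at 10.41 and 10.28 on the exchanged arrays and 12.39 on replicate 2. OsNPF7.3 read 12.97 without nitrogen against 11.86 and 11.61, which set the array without nitrogen apart from both replicates by at least 2-fold. OsNPF6.3 read 14.35, 13.66 and 12.95, with replicate 1 midway. OsNPF8.9, OsNPF7.7 and OsNAR2.2 differed by less than 2-fold in every comparison, and OsNPF8.20 only between the replicates (-1.15).

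Ammonium and urea genes followed. Of 11 tested, 6 were at least 2-fold higher on both exchanged arrays and 1 lower, beside 8.27% and 4.72% of all tested probe sets. OsAMT1.2 (Os02g0620500), a root ammonium transporter, read 10.83 and 10.78 on the exchanged arrays and 4.41 on replicate 2, below the 40th percentile of that array. The difference is therefore a bound of at least 58.4-fold and 56.2-fold. OsALN, an allantoinase that opens the ring of the ureide allantoin, read 10.44, 10.30 and 6.70. OsDUR3, a high-affinity urea transporter, read 10.57, 10.94 and 7.02. These genes share the pattern of OsNRT2.3, with the array without nitrogen and replicate 1 together and replicate 2 alone.

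OsAMT3.3 read 9.45, 9.29 and 6.86, OsAMT2.1 read 10.26, 10.32 and 8.65, and OsAMT1.1 read 13.58, 13.61 and 12.27. None of the ammonium and urea genes passed limma over all probe sets against replicate 2 (adjusted p from 0.0609 for OsALN upwards). OsAMT2.3 was lower on the exchanged arrays, at 5.22, 6.23 and 8.05, the first of these below the 40th percentile. Its 2 other probe sets also read lower than on replicate 2 but higher without nitrogen than on replicate 1, by 1.75 and 2.55. OsAMT1.3 (Os02g0620600), OsAMT2.2 and OsAMT3.2 differed by less than 2-fold. The reference synonyms of OsAMT1.2 and OsAMT1.3 conflict, so the loci identify them. The probe sets of OsAMT3.1 disagreed, with 1.40 and 1.63 against -1.30 for the difference from replicate 2.

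Assimilation genes went in both directions, also among genes of the same step. Of 15 tested, 5 were lower on both exchanged arrays and 2 higher, beside 4.72% and 8.27% of all tested probe sets. With the median of a gene's probe sets 2 were lower, and with low readings raised to the 40th percentile 1 was higher. OsNiR (Os01g0357100), the nitrite reductase that acts after nitrate reductase, read 11.26, 10.73 and 14.31, so replicate 2 was 8.3-fold above the array without nitrogen and 12-fold above replicate 1. It fell in limma against replicate 2 by 3.05 ± 0.33 (adjusted p = 0.0476), while replicate 1 against replicate 2 read -3.58 ± 0.33 (adjusted p = 0.0502). OsAS1, an asparagine synthetase, read 9.84, 9.90 and 13.23, a gap of more than 10-fold. OsGDH2, a glutamate dehydrogenase, read 10.00, 9.69 and 11.76, although its 2 other probe sets read -0.84 and 0.21 against replicate 2. OsAlaAT, an alanine aminotransferase, read 10.60, 11.11 and 12.29, and OsNADH-GOGAT1 (Os01g0681900), a glutamate synthase, 11.90, 12.37 and 13.44, with another probe set at 0.42 against replicate 2.

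Higher on both exchanged arrays was OsGS1.1, the cytosolic glutamine synthetase gene, at 14.99, 14.76 and 13.16. OsNADH-GOGAT2 read 6.75, 5.71 and 0.32, and with its low reading bounded only the array without nitrogen was at least 2-fold above replicate 2 (1.79). OsGS1.2 was level, at 15.19, 15.07 and 15.17. The nitrate reductases did not go with nitrite reductase. OsNIA1 read 13.91, 13.24 and 13.15, and OsNR2 read 7.97, 6.62 and 6.27, so the latter was at least 2-fold higher without nitrogen than on both replicates. OsFd-GOGAT, OsGDH1, OsGS2, OsGS1.3 and OsAS2 differed by less than 2-fold in every comparison on the probe set used. The 2 other probe sets of OsFd-GOGAT read -1.43 and -1.28 against replicate 2, and another of OsGS2 read 2.34 and 1.52 without nitrogen against replicates 1 and 2.

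**Figure D1:**
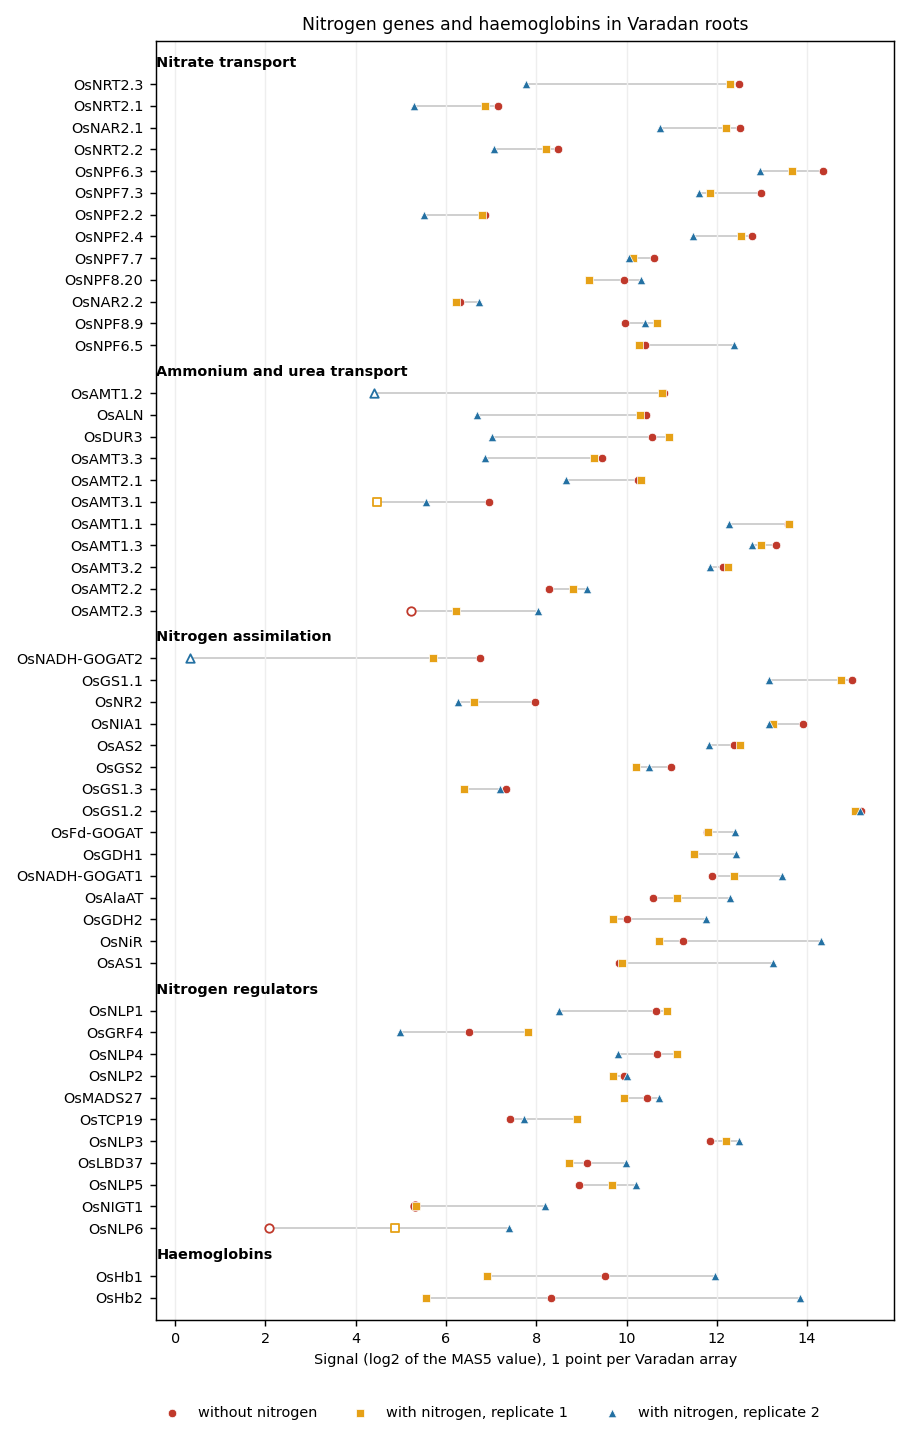
Signal (log2 of the MAS5 value, horizontal axis) of the tested genes of 5 lists on the 3 Varadan arrays, 1 point per array and a line over their range; hollow points lie below the 40th percentile of their array. For OsNRT2.3, OsAMT1.2, OsDUR3 and OsALN the array without nitrogen and replicate 1 nearly coincide far above replicate 2, and for OsNiR and OsAS1 far below it.

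Among 11 regulators, 2 were higher and 2 lower on both exchanged arrays, beside 8.27% and 4.72% of all tested probe sets. OsNLP1, a transcription factor of the nitrate-sensing NLP family, read 10.65, 10.91 and 8.49. OsNIGT1, a repressor that nitrate induces, read 5.32, 5.34 and 8.19, the first reading below the 40th percentile, so its difference without nitrogen is -2.77 or lower. OsNLP6 was also lower, at -1.98 or lower and -2.51 or lower, as both exchanged arrays lay below that percentile. OsGRF4 read 6.52, 7.81 and 4.99, highest on replicate 1. OsNLP5 was lower without nitrogen than on replicate 2 (-1.26) but replicate 1 lay closer to replicate 2 (-0.53). OsNLP2, OsNLP3 and OsMADS27 differed by less than 2-fold throughout. OsNLP4 (1.29) and OsLBD37 (-1.26) were past 2-fold only between the replicates, and OsTCP19 was highest on replicate 1 (7.42, 8.91 and 7.73).

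Of 5 amino acid transporter genes, only OsAAP1 was higher on both exchanged arrays, at 12.62, 12.31 and 10.31, beside 8.27% of all tested probe sets. It rose against replicate 2 by 2.31 ± 0.24 in limma with replicate 1 left out (adjusted p = 0.0476), and its 4 other probe sets read 1.31 to 1.69. The amino acid permease gene at Os01g0878700 read 14.09, 13.20 and 12.39, a graded order. The permease gene at Os01g0878400 read 8.97, 8.18 and 9.81, and OsAAP3 and OsLHT1, a lysine and histidine transporter, differed by less than 2-fold.

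Both haemoglobin genes fell, and OsHb2 had the largest fall of the 8 list genes that passed limma against replicate 2. OsHb1 and OsHb2 encode non-symbiotic haemoglobins, which bind nitric oxide and are induced by nitrate in rice. OsHb2 read 8.33 without nitrogen, 5.55 on replicate 1 and 13.85 on replicate 2. OsHb1 read 9.52, 6.92 and 11.96. Both fell against replicate 2 in limma from the array without nitrogen (-5.52 ± 0.26, adjusted p = 0.0476, and -2.43 ± 0.28, adjusted p = 0.0487). From replicate 1 the falls were larger, at -8.30 ± 0.27 (adjusted p = 0.0196) and -5.04 ± 0.29 (adjusted p = 0.0283). Replicate 1, labelled with nitrogen, thus stood 6.87-fold and 6.09-fold below the array without nitrogen. As related genes, they may share probe signal.

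Genes of other nutrients differed in part. Of 16 iron acquisition genes, 5 were lower on both exchanged arrays (4.72% of all tested probe sets) and 1 higher (8.27%), and replicate 1 lay nearer to the array without nitrogen in all 6 that were past 2-fold against replicate 2. OsHRZ2, a ubiquitin ligase that represses iron uptake genes, read 11.18, 11.26 and 14.14. It passed in limma from either array, falling by 2.96 ± 0.23 (adjusted p = 0.0476) without nitrogen and by 2.88 ± 0.23 (adjusted p = 0.0437) on replicate 1. OsNRAMP1 (13.16, 13.42 and 14.81), the nicotianamine synthase OsNAS3 (11.52, 11.75 and 13.29), the exporter OsENA1 (10.15, 10.69 and 12.18) and the iron-phytosiderophore transporter OsYSL15 (13.17, 13.44 and 14.58) had the same order. OsIRT2, an iron transporter, was the exception, at 12.48, 11.65 and 10.64. OsIRT1, OsNRAMP5, OsNAS1, OsNAS2, OsNAAT1, OsTOM1 and OsIRO3 stayed within 2-fold. OsDMAS1, the deoxymugineic acid synthase, was past 2-fold only between the replicates (-1.24). OsYSL2 read 6.87, 3.83 and 6.70 and the regulator OsIRO2 4.63, 6.07 and 5.46, in each case with 1 reading below the 40th percentile.

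Of 7 potassium, sodium and sulfate transporters, 3 were lower on both exchanged arrays (4.72% of all tested probe sets). OsAKT1, an inward potassium channel, read 11.97, 12.22 and 13.32, OsSULTR1.1 read 9.83, 10.12 and 11.50, and OsSULTR1.2 read 7.41, 7.98 and 9.64. The sodium transporter OsHKT2.1 alone was higher on both (8.27% of all), at 7.57, 6.40 and 3.99, the last below the 40th percentile. OsHAK1 and OsHAK5, high-affinity potassium transporters, differed by at most 0.52 in any comparison on the probe set used. Another probe set of OsHAK5 read 0.59 and 0.96 without nitrogen against replicates 1 and 2, and another of OsHAK1 read 0.63 between the replicates. Of 13 phosphate starvation genes only OsSPX2, a phosphate sensor, was higher on both (11.26, 11.41 and 9.61), beside 8.27% of all tested probe sets. The regulator OsPHR2 and the carriers OsPT1, OsPT2, OsPT8 and OsPHO1.2 stayed within 2-fold. OsPT4 read 7.76, 6.51 and 6.99, and OsSPX6 6.67, 2.87 and 5.59, with replicate 1 below the 40th percentile. Among 13 aquaporins the tonoplast genes OsTIP1.2 (10.35, 10.64 and 12.65) and OsTIP2.2 (13.14, 13.05 and 14.31) were lower on both exchanged arrays, beside 4.72% of all. OsTIP2.1 and OsTIP4.1 were higher without nitrogen than on replicate 2 (1.02 and 1.1), but another probe set of OsTIP2.1 read -3.32. OsTIP1.1 and the 8 genes of the plasma membrane PIP family stayed within 2-fold on the probe set used. Another probe set of OsPIP1.1 read 2.96 without nitrogen and 2.76 on replicate 1 against replicate 2, and another of OsPIP2.1 read 1.72 without nitrogen against replicate 1.

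Phenylpropanoid genes, which supply lignin, were mostly graded. Of 11, 9 read lower in steps from the array without nitrogen over replicate 1 to replicate 2, beside 22.5% of all tested probe sets. Of the 11, 6 were at least 2-fold higher without nitrogen than on replicate 2 and none was lower, beside 18% and 16% of all tested probe sets. Replicate 1 lay nearer to the array without nitrogen in all 6, and 3 were past 2-fold under either labelling, beside 8.27%. OsPAL2, a phenylalanine ammonia-lyase, which starts the pathway, read 15.23, 14.58 and 13.18. OsPAL4 was highest on replicate 1, at 12.41, 12.73 and 11.19. Os4CL3, a 4-coumarate ligase, read 11.89, 11.81 and 10.62, though 1 of its 2 other probe sets was level against replicate 2. OsC4H, OsCOMT and OsCAD2, enzymes further on towards lignin, read 1.19, 1.07 and 1.25 without nitrogen and 0.73, 0.61 and 0.71 on replicate 1, each against replicate 2. OsPAL6 stood apart, lowest on replicate 1 at 8.53 against 10.98 and 11.28. The ammonia-lyase genes are close copies and may share probe signal.

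**Figure D2:**
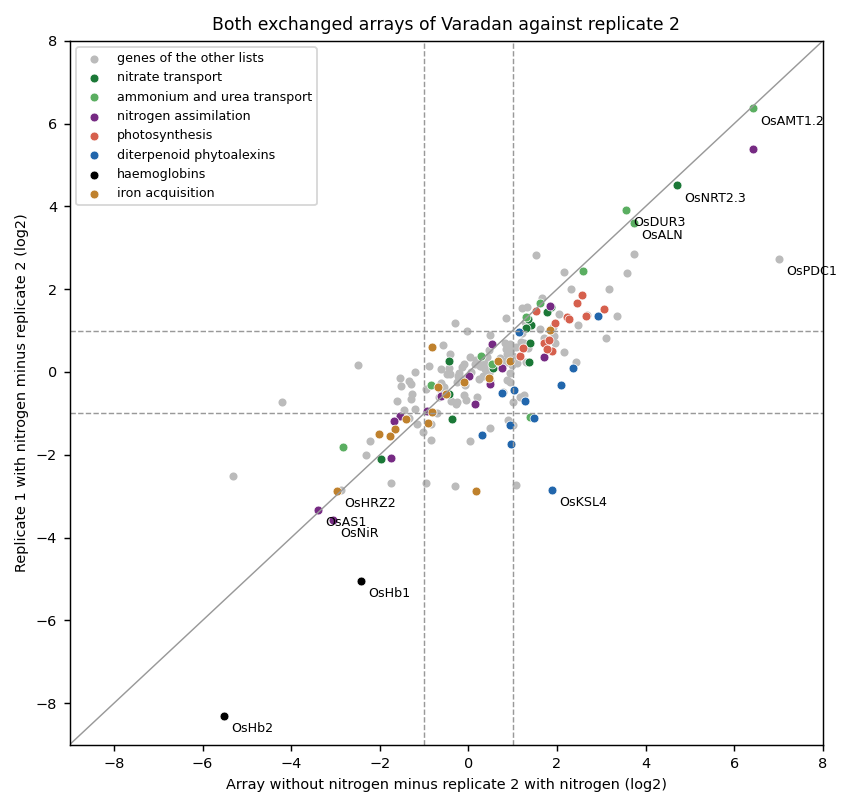
Each point is a tested list gene, with the array without nitrogen minus replicate 2 on the horizontal axis and replicate 1 minus replicate 2 on the vertical axis, both log2; dashed lines mark 2-fold and the solid line equality. The 41 genes in the upper right corner and the 23 in the lower left hold under either labelling; replicate 2 enters both axes, so points line up along the diagonal in part for that reason, and OsKSL4 and OsPDC1 lie off it.

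Outside the lists, 10 lower and 10 higher genes were named by the size of their differences under either labelling. OsCIN5, a cell wall invertase, which splits sucrose, read 7.75, 7.94 and 12.81. It fell by 5.06 ± 0.25 (adjusted p = 0.0476) without nitrogen and by 4.87 ± 0.26 (adjusted p = 0.0247) on replicate 1, each against replicate 2 in limma. OsCIN6, a relative, read 5.46, 5.16 and 7.75, and OsSUS4, a sucrose synthase, 7.47, 7.89 and 10.54. The protein kinase gene OsCIPK10 read 8.61, 9.54 and 12.12, and the transcription factor gene OsbZIP11 read 7.94, 7.76 and 10.72. All of these were lower on both exchanged arrays.

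OsHCT4, a hydroxycinnamoyl transferase gene, read 11.49, 11.02 and 6.79. It rose by 4.70 ± 0.28 (adjusted p = 0.0476) and 4.23 ± 0.28 (adjusted p = 0.0423) in the same fits. OsAT10, an acyltransferase that acts on cell wall arabinoxylan, read 9.27, 8.77 and 2.36, the last below the 40th percentile. Its differences are therefore at least 4.30 and 3.80. The limma fits used the readings as deposited, without this bound, and gave 6.90 ± 0.48 and 6.40 ± 0.50. The heat stress transcription factor gene OsHsf-16 read 12.22, 12.11 and 8.77, and OsPP2C30, a phosphatase gene, 9.94, 10.19 and 6.68. ILL3, OsKCS20, OsPP2C51, HIRL2, OsTDL1A and OsBURP10 were also among the 10 leading higher genes, all with replicate 2 below the 40th percentile, and only ILL3 (at least 2.47 and 2.94), OsKCS20 (at least 2.27 and 3.81) and OsBURP10 (at least 1.09 and 1.18) stayed past 2-fold on both sides as bounds. The other lower genes were ALD1, OsbZIP41, OsP5CS2, GRXC10 and OsPM19L1, at -3.51, -2.89, -2.85, -2.51 and -2.32 without nitrogen against replicate 2, with OsP5CS2 only -0.499 or lower as a bound and level between the replicates on another probe set (0.03).

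In all, 35 genes passed against replicate 2 from both exchanged arrays, 14 higher and 21 lower, and 8 of them had a name. Besides those given, the named one was ADIPOR1 (12.69, 13.07 and 9.81), named here after its values were seen. Of the unnamed, Os12g0555100 read 15.45, 14.60 and 9.59 and Os10g0518000 read 11.62, 11.37 and 7.09. Os07g0638400 read 9.88, 9.0 and 15.06 and Os12g0503000 read 8.81, 7.11 and 13.48.

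Other genes set the array without nitrogen apart from both arrays with nitrogen, a pattern that depends on the log2 table's labels. Some genes with this pattern also met the rule for either labelling. It held for 2612 probe sets higher and 2612 lower, 7.61% each, and after quantile normalization 37.2% of such calls were higher in place of 50%. With low readings raised to the 40th percentile of their array the counts were 2336 and 1090, or 68.2% higher, and at 4-fold they were 437 and 1080. With the labels exchanged the array called without nitrogen is replicate 1, which was at least 2-fold higher than both others at 710 (2.07%) and lower at 1901 (5.54%). The jasmonate list belonged here. Jasmonate is a fatty acid-derived hormone of wounding and defence, made with allene oxide synthases and held in check by JAZ repressors, which jasmonate itself induces. Of 11 genes, 6 were at least 2-fold higher without nitrogen than on both replicates and none was lower.

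OsJAZ12 read 12.28 without nitrogen, 10.10 on replicate 1 and 9.86 on replicate 2, and OsJAZ13 read 8.89, 6.89 and 5.54. OsJAZ10 read 12.16, 11.09 and 10.23, and OsJAZ11 read 11.07, 9.81 and 9.12. The synthase genes OsAOS2 (9.30, 7.63 and 7.14) and OsAOS1 (10.28, 9.23 and 8.97) were the other two. The replicates with nitrogen lay within 2-fold of each other for all of these except OsJAZ13. Of the 11 genes OsJAZ13 alone also held under either labelling, beside 8.27% of all tested probe sets. OsAOC, OsOPR7, OsJAZ6, OsJAZ8 and OsJAZ9 stayed within 2-fold.

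Diterpenoid phytoalexins are antimicrobial compounds of rice. All 12 of their genes read highest without nitrogen and 9 lowest on replicate 1, orders that were not counted over all probe sets. Replicate 1 was at least 2-fold lower than both other arrays for 5 of them, beside 5.54% of all tested probe sets. Of the 12, 11 were at least 2-fold higher without nitrogen than on replicate 1 (14.3% of all tested probe sets), 8 than on replicate 2 (18%) and 7 than on both (7.61%). OsCPS2, a copalyl diphosphate synthase at the head of the phytocassane pathway, read 12.63, 10.37 and 10.28. OsMAS, the momilactone A synthase gene, read 10.41, 8.02 and 8.33, and CYP99A2 read 11.80, 9.21 and 10.33. OsKSL4, a diterpene synthase of momilactone synthesis, read 9.31, 4.59 and 7.44, where the reading on replicate 1 lay below the 40th percentile and the difference from it is at least 4.43. CYP99A3, CYP71Z7 and CYP71Z6 were the remaining ones higher than on both. Only CYP71Z6 (9.55, 7.98 and 6.63) held under either labelling.

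Defence genes were less uniform. Of 12, 10 were at least 2-fold higher without nitrogen than on replicate 1, beside 14.3% of all tested probe sets. Against replicate 2, 2 were higher and 1 lower, beside 18% and 16%. PBZ1, a pathogenesis-related PR10 gene, read 15.49, 13.73 and 14.33, and OsPR1b read 10.27, 8.96 and 7.59, the 2 genes past 2-fold against both. OsPR1a (13.90, 12.07 and 13.42), RSOsPR10 (14.52, 12.24 and 13.52) and OsPR5 (11.46, 9.41 and 10.58) were less than 2-fold above replicate 2. The transcription factor genes OsWRKY62 (7.45, 6.53 and 9.20) and OsWRKY76 (9.09, 7.37 and 10.05) were highest on replicate 2. Under either labelling 1 of the 12, OsPR1b, was higher and 1, OsWRKY62, lower, beside 8.27% and 4.72% of all tested probe sets. Replicate 1 was the lowest array for 11 of these 12 genes, an order that was not counted over all probe sets. It was at least 2-fold lower than both other arrays for 5, beside 5.54% of all tested probe sets. The array's control for the EF1a gene of Magnaporthe, the blast fungus, read 9.50 without nitrogen, 7.57 on replicate 1 and 10.23 on replicate 2, thus also lowest on replicate 1; its part in these lists was not tested. The PR10 genes are near copies of each other.

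**Figure D3:**
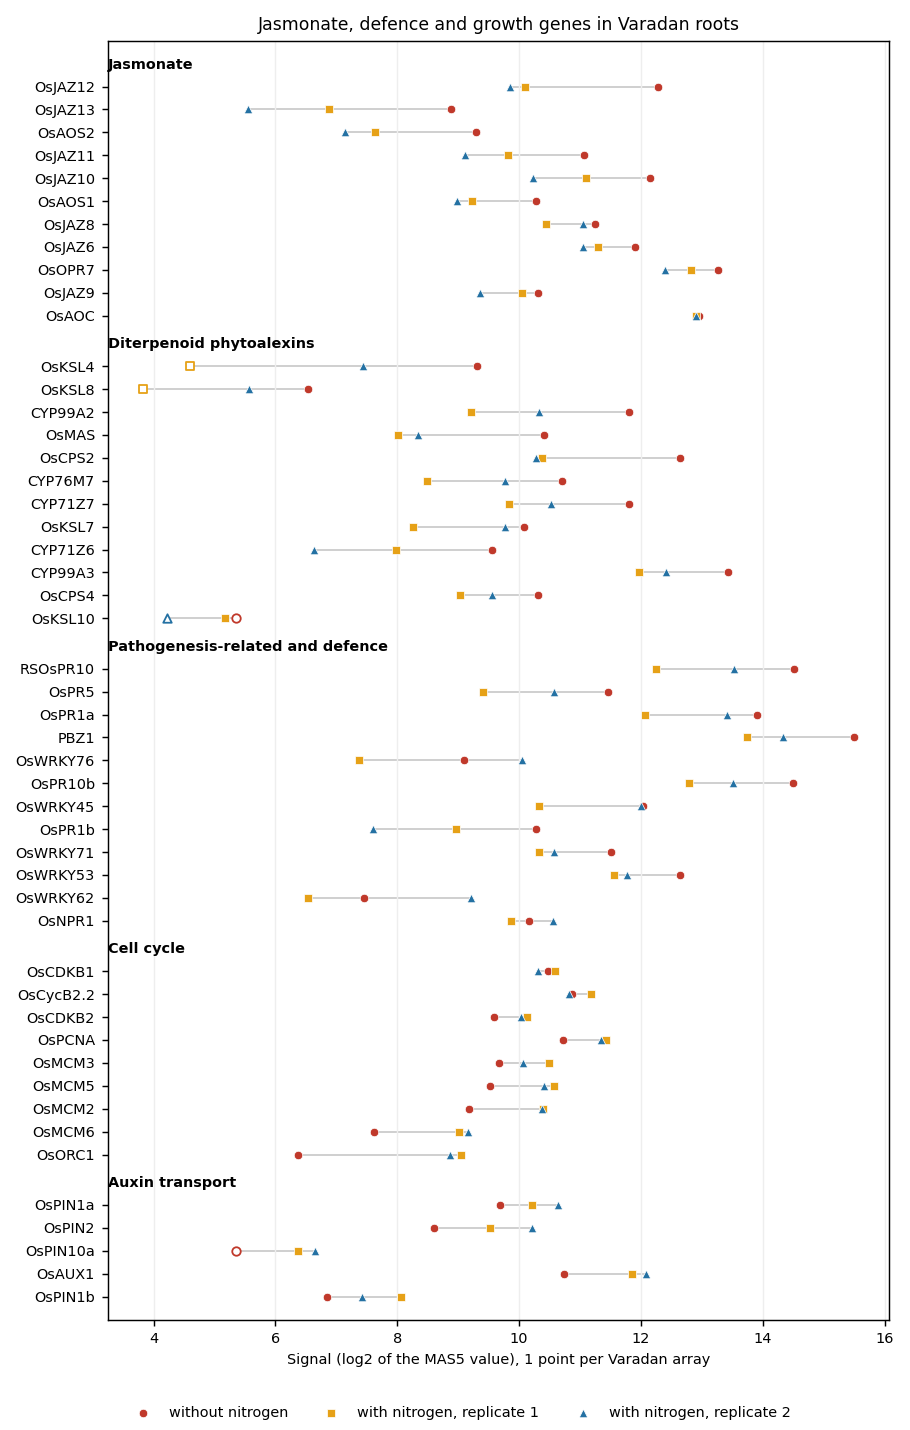
Signal (log2 of the MAS5 value, horizontal axis) of jasmonate, phytoalexin, defence, cell cycle and auxin transport genes on the 3 Varadan arrays, 1 point per array and a line over their range; hollow points lie below the 40th percentile of their array. Jasmonate genes such as OsJAZ12 have both replicates with nitrogen below the array without it, phytoalexin and PR genes are mostly lowest on replicate 1, and OsORC1 and OsMCM6 are lowest without nitrogen.

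Some genes of DNA replication were lower without nitrogen than on both replicates. Of 9 cell cycle genes, 3 were past 2-fold against both and none was higher, beside 7.61% each way. OsORC1, a subunit of the origin recognition complex, read 6.38 without nitrogen, 9.04 on replicate 1 and 8.87 on replicate 2, 6.32-fold and 5.6-fold lower. OsMCM6 (7.61, 9.01 and 9.16) and OsMCM2 (9.17, 10.39 and 10.38), subunits of the replicative helicase, had the same pattern. The mitotic genes OsCDKB1, OsCDKB2 and OsCycB2.2 stayed within 2-fold. OsORC1 and OsMAS had the smallest unadjusted p of all list genes in the labelled contrast (-2.57 ± 0.33 and 2.24 ± 0.33), but neither passed over all probe sets (adjusted p = 0.333 for each).

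Of 5 auxin transporter genes, 2 were lower without nitrogen than on both replicates and none was higher, beside 7.61% each way. With low readings raised to the 40th percentile 1 was lower. OsAUX1, the influx carrier, read 10.73, 11.85 and 12.08. OsPIN2, an efflux carrier of the root tip, read 8.60, 9.52 and 10.22. OsPIN10a was the other, though its reading without nitrogen was below the 40th percentile (-0.949 or lower against replicate 1) and another probe set was level or higher. Of 10 cytokinin genes, only OsIPT4, of cytokinin synthesis, was lower on both exchanged arrays (8.01, 7.57 and 9.02), beside 4.72% of all tested probe sets. The response regulator OsRR2 was lower on the array without nitrogen than on both replicates (7.96, 9.15 and 9.49). The remaining type-A regulators and the oxidase genes OsCKX1, OsCKX4 and OsCKX5 stayed within 2-fold, except OsRR9, which read 10.89, 11.91 and 10.93.

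Fermentation genes were mixed, with 2 of 9 higher and 1 lower than on both replicates, beside 7.61% of all tested probe sets each way. OsPDC1, a pyruvate decarboxylase gene, read 10.86, 6.57 and 3.84, the last below the 40th percentile, so it was 19.5-fold and at least 59.4-fold higher without nitrogen. Replicate 1 was also at least 3.04-fold above replicate 2. Thus OsPDC1, alone of the 9, held under either labelling, beside 8.27% of all tested probe sets. OsLDH, a lactate dehydrogenase, read 13.05, 11.23 and 11.78. OsALDH2a was lower, at 3.64, 7.13 and 7.85, which gives -1.71 or lower and -2.43 or lower. The sucrose synthase genes OsSUS1 (13.33, 13.98 and 14.63) and OsSUS2 (13.30, 13.63 and 14.52) were lower than on replicate 2 alone, but 1 of the 2 other probe sets of OsSUS1 read 2.36 against replicate 1 and 0.75 against replicate 2. OsADH1, OsADH2 and OsPDC2 differed by at most 0.21 on the probe set used, and another of OsADH1 by -0.43 and -0.38 from replicates 1 and 2.

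Of the genes outside the lists that led this pattern, OsTBT2 read 9.54 without nitrogen against 5.16 and 5.63, a 20.9-fold and 15.1-fold difference. OsGER5 read 11.17, 7.77 and 8.53, and OsKO4, a kaurene oxidase gene of phytoalexin synthesis, 12.51, 9.58 and 10.19. DREB1G, a transcription factor gene of a cold and drought family, read 8.64, 3.28 and 5.06, at least 3.75 and 3.59 as bounds. CYP76M5, of the phytocassane gene group, read 9.60, 7.59 and 6.92, OsSTLP3 read 8.25, 5.97 and 5.20, and OsSNAT2 read 7.77, 5.47 and 5.70. OsGDH3, OsHAP3I and CLPC3 were higher by at least 1.78, 2.19 and 1.48. All 10 leading lower genes were below the 40th percentile without nitrogen. As bounds only KIN12F (-3.0 or lower and -3.29 or lower), OsCKX3 (-2.39 and -2.75), OsFH6 (-1.23 and -1.09) and HAP2B (-1.04 and -1.70) stayed past 2-fold against both, and OsAGO17, IMCE, OsDAF1, YSL18, SPL7 and OsPP2C69 did not.

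Photosynthesis and dehydration genes read lower in steps from the array without nitrogen over replicate 1 to replicate 2. All 14 photosynthesis genes had this order, against 22.5% of all tested probe sets, and so did all 7 dehydration genes. All 14 photosynthesis genes were at least 2-fold higher without nitrogen than on replicate 2, beside 18% of all tested probe sets. Of the 14, 6 were higher than on both replicates (7.61% of all) and 8 under either labelling (8.27%). These genes are expressed together in green tissue and are not independent of each other. OsLhcb4, a light-harvesting protein gene, read 12.70, 11.17 and 9.64, and OsPC, plastocyanin, read 14.81, 13.82 and 12.54. With replicate 1 left out both rose in limma, by 3.05 ± 0.26 and 2.27 ± 0.23 (adjusted p = 0.0476 for each). Against replicate 2 from replicate 1 they read 1.52 ± 0.27 (adjusted p = 0.125) and 1.28 ± 0.23 (adjusted p = 0.126).

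The Rubisco small subunit genes OsRBCS2 (14.50, 13.72 and 12.05), OsRBCS3 (12.69, 12.63 and 11.17) and OsRBCS4 (14.13, 13.44 and 11.58) are near copies, and 1 of the 2 other probe sets of OsRBCS4 read -0.37 against replicate 2. OsGAPA, a Calvin cycle enzyme gene, read 12.14, 10.84 and 9.48, and OsRCA, Rubisco activase, 14.28, 13.51 and 12.34. The photosystem genes OsPsbO (13.30, 11.90 and 11.40) and OsLhca1 (12.19, 10.98 and 10.43) had replicate 1 nearer to replicate 2. The spike-in RNA had the same order of arrays, and its part was not tested.

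Of the 7 dehydration genes, all were at least 2-fold higher without nitrogen than on replicate 2, beside 18% of all tested probe sets. Of the 7, 3 were higher than on both replicates (7.61% of all) and 5 under either labelling (8.27%). Abscisic acid is the hormone of water shortage, and RAB16 genes encode dehydrins, protective proteins that it induces. RAB16D read 12.48, 10.20 and 9.37, RAB16B read 11.10, 9.93 and 7.94, and OsLEA3 read 12.84, 12.27 and 11.22. OsPP108, a phosphatase 2C of abscisic acid signalling, read 11.62, 10.74 and 7.89, and in limma the array without nitrogen read 3.74 ± 0.44 against replicate 2 (adjusted p = 0.0504). The transcription factor genes OsHOX22 (11.64, 10.31 and 9.18) and OsbZIP23 (12.73, 12.44 and 11.51) had the same order. The RAB16 genes lie in a family of similar sequence.

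**Figure D4:**
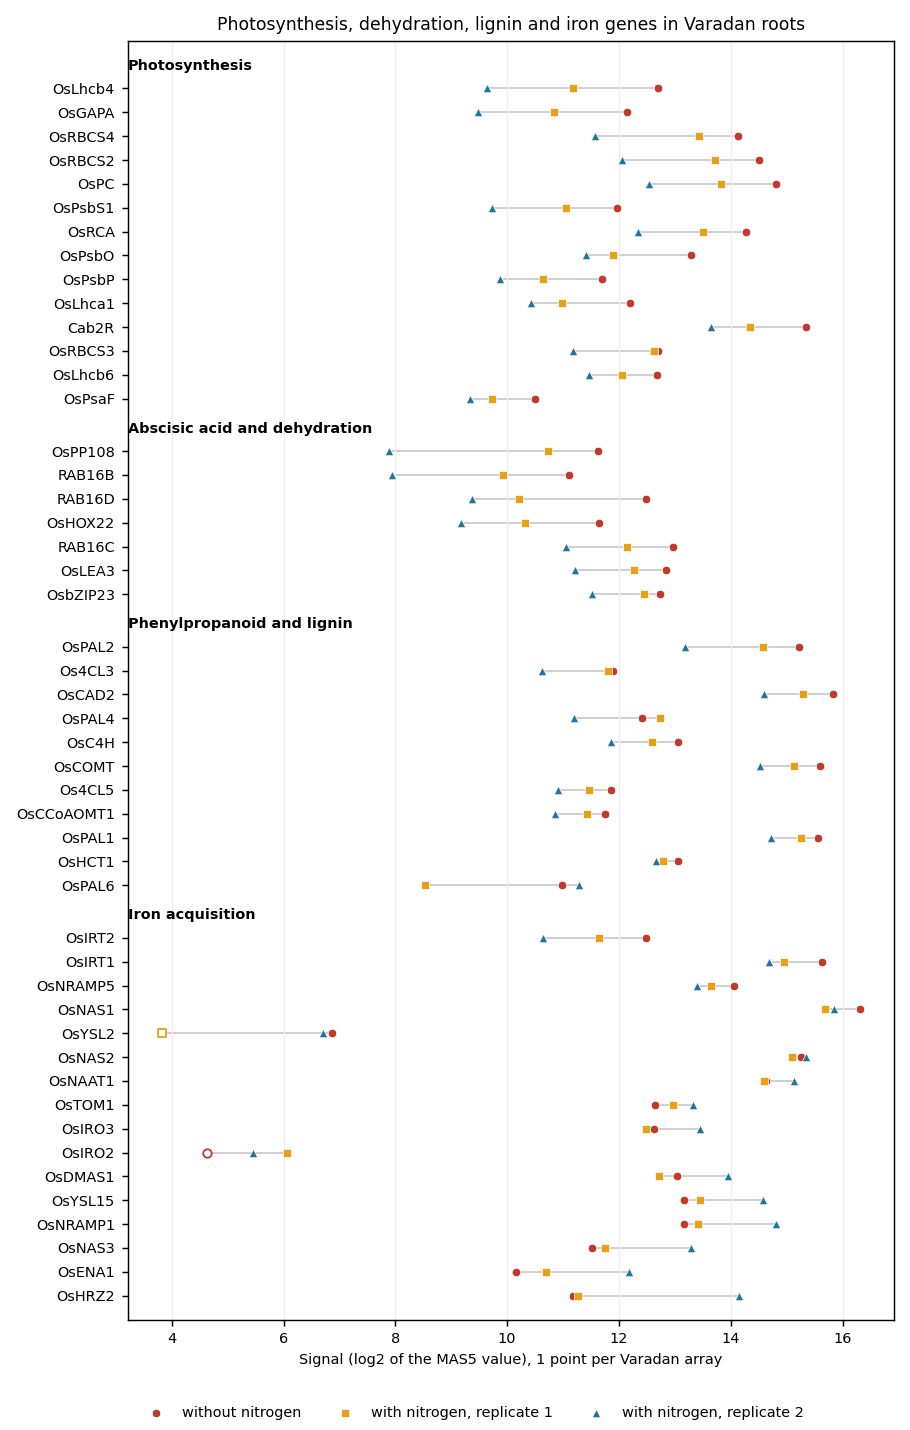
Signal (log2 of the MAS5 value, horizontal axis) of photosynthesis, dehydration, phenylpropanoid and iron genes on the 3 Varadan arrays, 1 point per array and a line over their range; hollow points lie below the 40th percentile of their array. All 14 photosynthesis and all 7 dehydration genes read highest without nitrogen, lower on replicate 1 and lowest on replicate 2, while OsHRZ2 has the first 2 arrays together.

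Replicate 1 stood alone at a few named genes. OsGLU15 read 9.70 there and lay below the 40th percentile on both other arrays. As bounds, the array without nitrogen read -4.28 or lower against it, and it was at least 4.73 above replicate 2. OsER2, a receptor kinase gene, read 6.41, 9.49 and 6.5, and another probe set was also highest on replicate 1, with -1.71 without nitrogen against replicate 1, 1.38 against replicate 2 and 3.09 between the replicates. G1L4 read 5.89, 9.59 and 7.13, OsPP2C73 read -2.48 or lower without nitrogen against replicate 1 and was 2.71 higher on replicate 1 than on replicate 2, and LPR4 passed 2-fold only against replicate 2 as a bound (at least 1.1). OsEXPB18, a beta-expansin gene, was lowest on replicate 1, at 10.21, 1.02 and 8.47, at least 5.32 under the array without nitrogen and at -3.58 or lower against replicate 2. OsHAK3, OsAsp1, CYP714B1 and ALD1 were lower as well, at -1.64, -1.08, -1.89 and -4.05 or lower against replicate 2, but as bounds OsAsp1 and ALD1 were less than 2-fold under the array without nitrogen. The 2 other probe sets of OsHAK3 went the other way between the replicates, at 0.17 and 1.34.

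**Figure D5:**
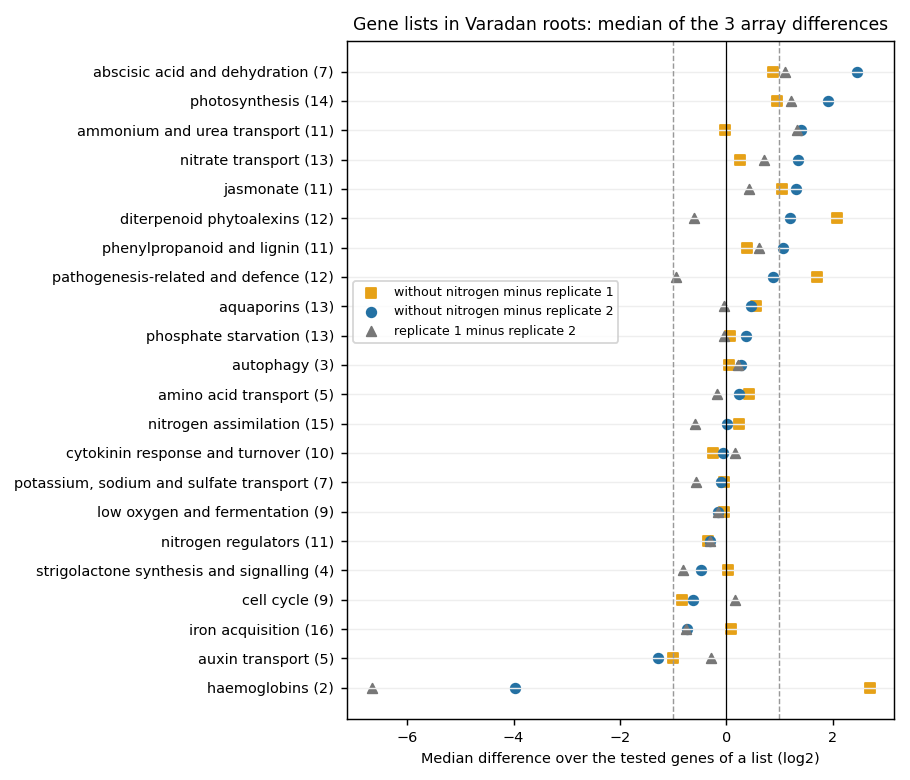
Median difference (log2, horizontal axis) over the tested genes of each of 22 lists (number in brackets) for the 3 pairs of Varadan arrays; dashed lines mark 2-fold. Ammonium and urea transport is near 0 between the exchanged arrays and at 1.40 and 1.34 against replicate 2, jasmonate is at 1.05 and 1.31 against the replicates and at 0.43 between them, and phytoalexins and defence are highest against replicate 1.

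Over the 22 lists with 213 tested genes, 41 genes were higher and 23 lower under either labelling, beside 8.27% and 4.72% of all probe sets, and 11 of these (6 higher and 5 lower) also passed the stricter count, beside 1.96%. The 6 were OsNRT2.3, OsAMT1.2, OsAMT3.3, OsDUR3, OsALN and OsNADH-GOGAT2, and the 5 were OsNiR, OsAS1, OsNIGT1, OsHRZ2 and OsHb2. OsNADH-GOGAT2 is among them only through its reading of 0.32 on replicate 2, below background, and did not pass with low readings raised. The median of all tested probe sets was 0.0006 against replicate 1, -0.0075 against replicate 2 and -0.047 between the replicates. For nitrate transport the medians were 0.26, 1.35 and 0.70, and for dehydration 0.89, 2.46 and 1.1. Autophagy genes of the ATG8 family stayed within 2-fold. Of 4 strigolactone genes only D10, a carotenoid cleavage dioxygenase of the hormone's synthesis, was higher on both exchanged arrays (7.06, 7.3 and 5.73), beside 8.27% of all. Another probe set of D10 read 0.61 against replicate 2, and D17 was lower than on replicate 2 alone (-1.45).

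Whether Varadan differed from Prasanna was tested as the difference of their responses. No probe set (0 by limma, 0%) passed: the smallest adjusted p was 0.925, and 1838 (5.36%) had an unadjusted p under 0.05. The smallest p of a list gene belonged to OsNIA1, the nitrate reductase. It read 13.91 without nitrogen and 13.24 and 13.15 with it in Varadan, and 12.02, 13.89 and 13.92 in Prasanna, a difference of responses of 2.6 ± 0.29 (adjusted p = 0.925). OsNIGT1 read 5.32, 5.34 and 8.19 against 1.02, 8.92 and 8.25. Its readings without nitrogen, 5.32 and 1.02, lay below the 40th percentile of their array (5.42 and 5.13), so the size of its difference of responses is uncertain. OsPR5, CYP99A3, OsPsbO and OsNR2 completed the 6 smallest, with differences of responses of 3.22 ± 0.74, 2.08 ± 0.53, 1.85 ± 0.48 and 3.11 ± 0.88, each with adjusted p = 0.925. Varadan's replicate 1 read like the array without nitrogen for OsNIGT1 and like replicate 2 for OsNIA1.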

How the data were processed

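Root RNA was hybridised to 6 Affymetrix rice arrays, 1 per sample. The deposited log2 table holds the log2 of a MAS5 signal per probe set and array, per the submitters' processing notes, whose version is not given in the sources used here. As deposited, the series matrix gives these signals as linear intensities with 2 arrays exchanged, at a tolerance of 1e-06 on the log2 scale. Every array had a trimmed mean of 500, so the authors' values had been scaled before deposit. The log2 table was used as deposited, and the series matrix as an alternative.

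Of 57381 probe sets, 187 controls were left out, and the 34316 with a mean over the 6 arrays at or above its 40th percentile were tested. Exactly 1 gene was assigned to 34860 probe sets by the platform annotation, several to 567 and none to 21767. Names came from the lists or from synonyms in the RefSeq gene table (ASM3414082v1, used for names only). A gene is shown by its probe set with the highest mean. Readings under an array's own 40th percentile (4.89 to 5.42 log2) give bounds, a rule added after seeing the data.

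Differences between 2 arrays have no test and are counted past 1 log2. Limma 3.58.1 in R 4.3.3 fitted 1 mean per variety and supply over 6 arrays with an eBayes trend, two-sided, at a Benjamini-Hochberg adjusted p under 0.05 across the tested probe sets, and each lone array is assumed to vary like the pairs. The fit was tested on simulated data with a common spread set below that between the Prasanna replicates. That test therefore does not cover the spread of these arrays. The number of arrays limits the precision.

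The arrays, the 23 gene lists with 234 genes (217 tested) and the tests were chosen with earlier results of these data known. Of the 221 list genes with a probe set of their own, 153 had a list name that matched a reference synonym. Besides list members, genes were named by rule among named genes above background: the 10 higher and 10 lower on the array without nitrogen against both replicates, the 10 and 10 on both exchanged arrays against replicate 2, and the 5 and 5 on replicate 1 against both others, by the smaller difference. Alternatives were the exchanged labels, the filter, the scaling, the threshold, the variance model, the choice of probe set and each replicate left out.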

Additional observations from a re-analysis of the deposited data

Results flagged for a closer look

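At 138 of 21680 genes both differences of the array without nitrogen from the arrays with nitrogen were past 2-fold in Varadan and past 2-fold the opposite way in Prasanna, 85 of them higher in Varadan and 53 lower. Among the genes of the lists and of the naming rule there were 4. They were picked out because every array of each variety goes its own way, and not by a test: the difference itself did not pass limma in any of them (adjusted p = 0.925, or 0.932 for OsGLU15).

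OsNR2, a nitrate reductase, read 7.97 without nitrogen and 6.62 and 6.27 with it in Varadan, and 5.77, 7.91 and 6.79 in Prasanna, a difference of responses of 3.11 ± 0.88 (SE). OsKSL4, of momilactone synthesis, read 9.31, 4.59 and 7.44 against 5.79, 7.48 and 6.90, a difference of 4.70 ± 1.66. Its reading of 4.59 lay below the 40th percentile of its array. G1L4 read 5.89, 9.59 and 7.13 against 8.92, 7.68 and 7.60, a difference of -3.75 ± 1.40. OsGLU15 read 0.87, 9.70 and 4.31 against 6.01, 4.93 and 4.44, a difference of -7.45 ± 3.14, with the readings of 0.87 and 4.31 below the 40th percentile of their array, and the direction in Varadan against replicate 2 turns when they are raised to it. With the labels of the Varadan arrays exchanged, none of the 4 keeps both Varadan differences in this direction.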

How the results depend on the processing

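Labels, filter and threshold moved the counts, and scaling did so less. No paired analysis was possible because Varadan and Prasanna without nitrogen have 1 array each here, so the groups compared share fewer than 2 replicate numbers. For the Varadan response limma called 0 probe sets, and between 0 and 241 with 1 array with nitrogen left out, the highest count being that without Varadan replicate 1, and 55 with exchanged labels and replicate 1 left out. The difference from Prasanna gave 0 calls in every fit run. Probe sets higher without nitrogen than on replicate 1 numbered 4893, and 14827 with no filter, 1336 with a filter at the 60th percentile and 1662 at 4-fold. Those lower numbered 3612, and 9372, 1504 and 1445 under the same changes, or 1916 with low readings raised to the 40th percentile of their array. Against replicate 2, 6189 higher became 15268, 2727 and 2153, or 3914 with exchanged labels, and 5497 lower became 11730, 3155 and 1881. Higher under either labelling, 2839 became 6823, 1343 and 982, or 1823 with low readings raised, and 1621 lower became 5081, 929 and 325. Under the stricter rule 538 higher became 1577, 162 and 71, or 167 with low readings raised, and 136 lower became 1056, 75 and 8.

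Over the genes of the lists, 49 higher than on replicate 1 became 15 with exchanged labels and 18 at 4-fold, and 15 lower became 49 and 3. Against replicate 2, 75 higher became 43 and 28, and 35 lower became 13 at 4-fold. Under either labelling 41 higher became 10 and 23 lower became 8 at 4-fold. Of 46 list counts, 22 moved at 4-fold, 3 with the median probe set, 2 under quantile normalization, and 1 each with equal medians and low readings raised.

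With exchanged labels the difference between the array without nitrogen and replicate 2 changed sign for 65 of 266 genes. Of the 156 genes past 2-fold in the deposited values it changed sign for 26. It then read -0.56 for OsLDH, 0.14 for OsFH6, 0.0098 for OsMCM2, -1.12 for CYP99A2, -0.60 for PBZ1, -0.69 for CYP71Z7, -2.84 for OsKSL4, -1.09 for OsAMT3.1, 0.17 for OsORC1, -0.75 for OsGER5, 2.71 for OsPP2C73, 0.82 for OsPP2C69 and -1.23 for OsHAP3I. It read -1.77 for DREB1G, -0.47 for OsTBT2, -0.41 for CLPC3, 5.39 for OsGLU15, -0.44 for CYP99A3, -7.45 for OsEXPB18, -0.23 for OsSNAT2, -0.61 for OsKO4, -0.31 for OsMAS, -2.96 for OsGDH3, 2.46 for G1L4, 0.85 for OsDAF1 and -2.72 for OsSPX6. With low readings raised it changed sign for 4 of the 266, 3 of them among the 156, to 0.23 for OsPP2C73, 0.46 for OsGLU15 and 0.0522 for OsDAF1. None of the 156 changed sign under quantile normalization, equal medians or the median probe set, and over the 266 genes 16, 5 and 3 did. The difference from Prasanna read -0.11 for CYP99A3 and -0.24 for OsPsbO with exchanged labels.

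Varadan without nitrogen has 1 array here, so differences from it have no replicate error of their own. Which of the exchanged arrays had no nitrogen is not settled by the deposited values. Low signals have no detection call, so readings near the 40th percentile are uncertain.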
